A study of Harpegnathos saltator with 19 samples.

Results

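Hr3, Hr39, Blimp-1 and ftz-f1 are the genes of the later, timing arm of the ecdysone cascade, and their levels were followed in the brain of the ant Harpegnathos saltator after injection of an insect hormone. They were chosen by name for that role, with earlier results of these data known, and make up 4 of the 14001 genes in the deposited table. Hr3 was found by its RefSeq symbol (NCBI gene number 105191883), ftz-f1 by the number 105187567, Blimp-1 by 105188360 and Hr39 by 105184481. Chromosome positions are not given here, because the genome build behind the table is not given in the sources used here.

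Ecdysone acts as 20-hydroxyecdysone (20E) on a pair of nuclear receptors, EcR and Ultraspiracle, which switch on early genes such as the nuclear receptor genes E75 and Hr4. In the fly, a slower set of factors then times the next step. The receptor Hr3 activates ftz-f1 and represses early genes, and E75 can bind Hr3 and block it. Blimp-1, a zinc finger repressor induced by 20E, holds ftz-f1 off until the hormone has fallen and the Blimp-1 protein has decayed. The product of ftz-f1 is a nuclear receptor that makes tissues competent for the next hormone pulse. Hr39 encodes its closest relative among the fly receptors, which can bind the same DNA sites. In the fly brain Hr39 and ftz-f1 have opposed roles in the remodelling of mushroom body neurons. All these roles are those of the fly genes.

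RNA was sequenced from 19 worker ants, 1 central brain to a library, dissected 10 h after an injection into the head. In 7 ants the injection held 100 ng of 20E, in 7 it held 100 ng of juvenile hormone III (JH3), and 5 ants formed the DMSO control. The labels name 5% glucose as what the hormones were dissolved in and DMSO as the control, so any effect of a different carrier cannot be told apart from a hormone effect. No genetic change, strain or age is labelled, and the series text calls the libraries biological replicates. Poly(A) RNA was made into strand-specific libraries. The sample descriptions carry 2 run labels. In each group replicates 1 to 3 belong to run 190514. The remaining libraries, 4 of 20E, 4 of JH3 and 2 of DMSO, belong to run 200212.

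Reads on genes numbered 14.05 M in the shallowest library and 26.09 M in the deepest (median 18.31 M). Summed markers of neurons ran from 374 to 520 FPKM in DMSO, 401 to 650 in 20E and 377 to 521 in JH3, and all 6 were detected. The 6 glial markers summed to 751 to 1051 FPKM in DMSO, 502 to 881 in 20E and 421 to 861 in JH3. Gs2 makes up most of that sum, and the members differed in direction. Gli was higher in 20E than in DMSO (log2 difference 0.57, limma adjusted p = 0.0237), and Gat-a had -0.47 and did not pass (0.0887). In JH3 against DMSO, moody (-0.63, limma adjusted p = 0.0222) and Gat-a (-0.62, 0.0398) were lower. Eye markers, from tissue next to the central brain, varied from 24.5 to 473 FPKM among the libraries. The 2 haemocyte markers summed to 17.8 to 26.9 FPKM in DMSO, 22.7 to 42.6 in 20E and 11.4 to 26.0 in JH3. Most of that sum is drpr (mean 20.0 FPKM in DMSO, against 2.32 for Hml). Neither passed in 20E against DMSO, with log2 differences of 0.36 for drpr (limma adjusted p = 0.19) and -0.0015 for Hml (0.999). The corpora allata gene jhamt ran from 0.022 to 4.77 FPKM in DMSO (median 4.10) and 0.014 to 5.58 in 20E (median 0.039). In JH3 it ran from 3.15 to 8.44 FPKM (median 5.28). Its log2 difference did not pass in 20E against DMSO (-0.76, limma adjusted p = 0.999) or against JH3 (-2.20, 0.0741). Nor did it pass in JH3 against DMSO (1.44, limma adjusted p = 0.642). Of the 29 markers tested over all cell types, 2 were higher (Gli and Gasp, a tracheal and epidermal gene, by 1.88 with a limma adjusted p of 0.00706) and 1 lower (sev) in 20E than in DMSO. In 20E against JH3, 5 were higher (Gli, moody, FASN1, drpr and Gasp) and 0 lower. Among all genes tested, 2.59% were higher and 0.746% lower in 20E than in DMSO, and 3.90% higher and 1.44% lower in 20E than in JH3. In RNA of a central brain, fewer cells of a type and less RNA per cell cannot be told apart. The part of cell composition in the results for the timer genes was not tested.

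All 4 timer genes were expressed in the control brain. Levels are the authors' FPKM values, reads scaled to gene length and to a factor for each library. That factor lay within 0.64% of a median ratio over genes, so it is not a scaling to total reads. The mean in DMSO was 17.6 ± 4.88 FPKM (SD, n = 5) for Hr3, 10.6 ± 3.64 for ftz-f1, 5.10 ± 2.23 for Blimp-1 and 3.54 ± 1.38 for Hr39. Hr3 thus stood at the 77.8th percentile of the level per length among the genes tested, and ftz-f1 at the 63.1st. Blimp-1 stood at the 36.6th percentile and Hr39 at the 25.8th.

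The same order, Hr3 above ftz-f1, ftz-f1 above Blimp-1 and Blimp-1 above Hr39, held in 5 of 5 DMSO and 7 of 7 JH3 libraries. In 20E, Blimp-1 lay above ftz-f1 in 4 of 7 libraries. Among 13 nuclear receptor genes ranked by mean FPKM in DMSO, Hr3 was the fifth, ftz-f1 the sixth and Hr39 the ninth. Hr96 (21.0 ± 2.34 FPKM) was the neighbour above Hr3, and their ranges of 1 SD overlap. The next below ftz-f1 was ERR (8.59 ± 1.71 FPKM), also within 1 SD. The receptor gene Ecr (6.13 ± 0.649 FPKM) lay between ERR and Hr39.

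These are long, well covered transcripts. The exon model of Hr3 is 21143 bases long, that of Blimp-1 16061, that of ftz-f1 10219 and that of Hr39 9844, against a median of 4257 bases over the genes tested. Hr3 drew 6925 to 13367 reads per library and ftz-f1 1157 to 3620. Blimp-1 drew 994 to 5312 reads and Hr39 408 to 1412, so counting error was at most 4.95% of a value. RefSeq lists 9 transcripts for Hr3, 2 each for ftz-f1 and Blimp-1, and 1 for Hr39. The table has 1 value per gene, so isoforms, which differ in timing for fly ftz-f1, cannot be told apart.

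The comparison of 20E with DMSO asks how the timing genes stood 10 h after ecdysone. Hr3 and Hr39 rose by about the same factor. Blimp-1 had an estimate of the same size but a larger spread and did not pass, and ftz-f1 had an estimate below 0 and did not pass. In all, 2 of the 4 timer genes passed the threshold, against 3.34% of the 9381 genes tested (2.59% higher and 0.746% lower). The test was limma on log2(FPKM + 0.5) with the run as a term, and adjusted p-values are Benjamini-Hochberg adjusted over all genes tested with a threshold of 0.05.

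Hr3, the activator of ftz-f1 in the fly, had 14.7, 15.6, 12.5, 20.8 and 24.5 FPKM in DMSO replicates 1 to 5. In 20E it ran from 25.1 to 36.4 FPKM with a median of 30.2. The 20E libraries lay above the DMSO libraries with no overlap, which 1.62% of the genes tested did in that direction. The level went from 17.6 ± 4.88 (SD, n = 5) to 29.6 ± 4.04 FPKM (n = 7). The log2 difference was 0.71 ± 0.12 (SE, 95% interval 0.47 to 0.95), with a limma adjusted p of 0.000886. Within run 190514 the difference was 0.92, and within run 200212 it was 0.45 and no longer passed (limma adjusted p = 0.458, 4 libraries against 2).

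Hr39, the relative of ftz-f1, had 2.64, 3.11, 2.05, 4.52 and 5.38 FPKM in DMSO replicates 1 to 5. In 20E its lowest value was 4.44 FPKM, its median 5.98 and its highest 9.81. The groups overlap when the runs are pooled, but in each run every 20E library lay above every DMSO library, as was also so for Hr3. Such a separation in both runs held for 2.69% of the genes tested. The level went from 3.54 ± 1.38 (SD, n = 5) to 6.49 ± 1.98 FPKM (n = 7), a log2 difference of 0.71 ± 0.13 (SE, 95% interval 0.44 to 0.98). It passed with a limma adjusted p of 0.00215. The call was lost without the run term (0.81, limma adjusted p = 0.054) and within each run (0.78 with 0.0804 and 0.59 with 0.412).

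**Figure D1:**
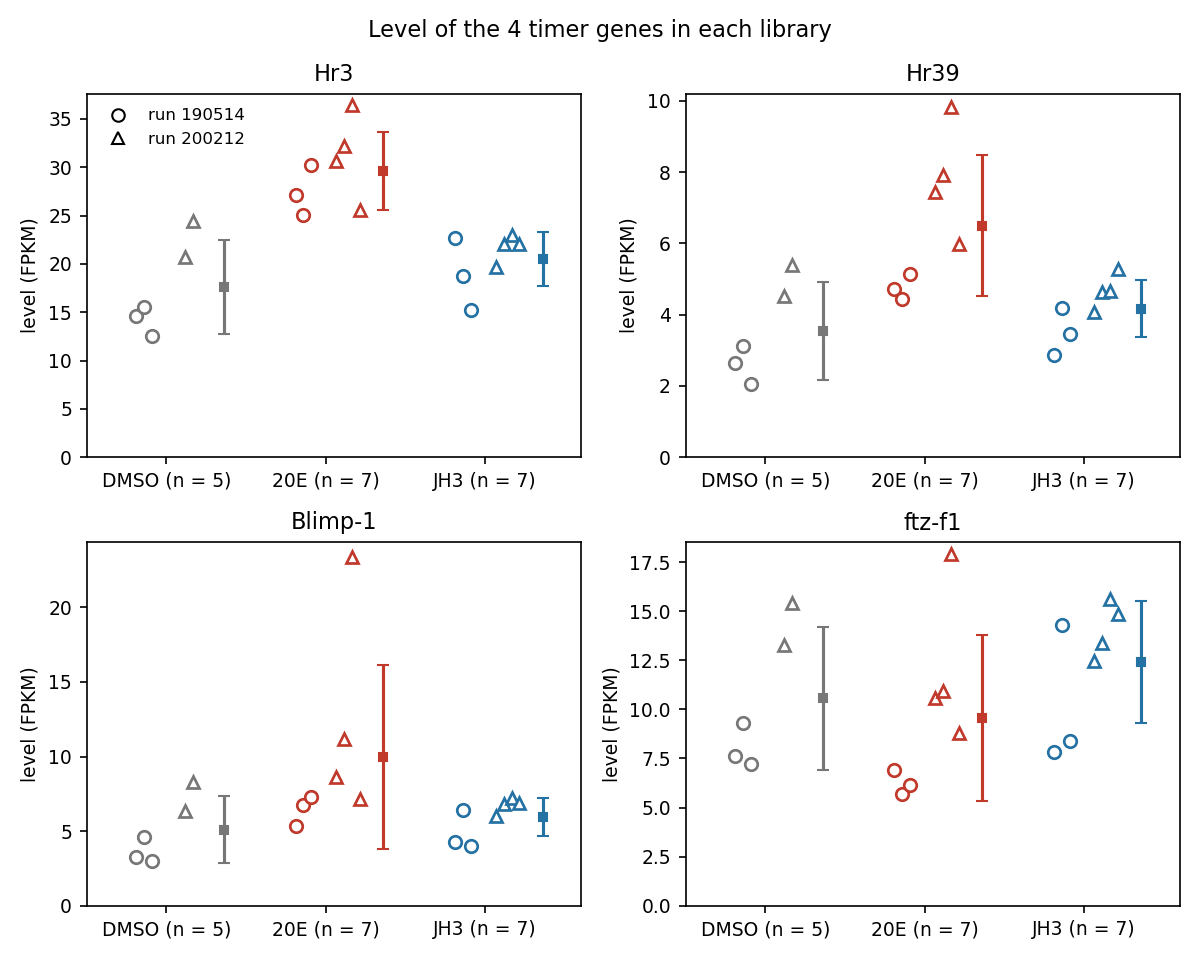
FPKM of the 4 timer genes in each of the 19 libraries, on linear axes from 0. Circles are run 190514, triangles run 200212, and the squares with bars give the mean and SD of each group. Hr3 in 20E (25.1 to 36.4) lies above DMSO with no overlap, and 20E replicate 6 is the highest library for all 4 genes.

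Blimp-1, the repressor of ftz-f1 in the fly, had 3.29, 4.60, 2.97, 6.38 and 8.29 FPKM in DMSO replicates 1 to 5. Its 20E values ran from 5.35 to 23.4 FPKM with a median of 7.30. In run 190514 the 3 20E libraries lay above the 3 DMSO libraries, as 8.44% of the genes tested did, and in run 200212, where 5.47% were separate in that direction, the groups overlap. All 7 20E libraries lay above the pooled DMSO mean, a count that mixes the runs and for which no share of all genes was computed. Within run 200212, 20E replicate 7 (7.16 FPKM) lay below the DMSO mean of that run (7.33) and the other 20E libraries above it. The level was 5.10 ± 2.23 FPKM (SD, n = 5) in DMSO and 9.96 ± 6.18 (n = 7) in 20E, and the log2 difference of 0.72 ± 0.22 (SE, 95% interval 0.26 to 1.17) missed the threshold (limma adjusted p = 0.0986).

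A single ant carried much of that spread. 20E replicate 6 had 23.4 FPKM of Blimp-1, and the next 20E library had 11.2. Without it the log2 difference was 0.55 (limma adjusted p = 0.051), and without 20E replicate 7 it was 0.81 and passed (limma adjusted p = 0.0365). The value also passed when the libraries were weighted by their own spread (0.70, limma adjusted p = 0.00297) and when they were scaled to total reads (0.65, limma adjusted p = 0.0308).

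For ftz-f1 the DMSO values were 7.61, 9.28, 7.20, 13.3 and 15.4 FPKM in replicates 1 to 5. In 20E they ran from 5.71 to 17.9 with a median of 8.81. In run 190514 the 3 20E libraries (5.71 to 6.89 FPKM) lay below the 3 DMSO libraries, as 8.70% of the genes tested did, and in run 200212 the groups overlap. The means were 10.6 ± 3.64 FPKM (SD, n = 5) and 9.57 ± 4.22 (n = 7). With a log2 difference of -0.29 ± 0.16 (SE) and a 95% interval from -0.63 to 0.05, the value did not pass (limma adjusted p = 0.698). A fall of up to 0.63 or a rise of up to 0.05 on the log2 scale is within this interval, and a rise of the size seen in Hr3 or Hr39 is outside it.

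The comparison of JH3 with DMSO asks whether the same genes moved under the other hormone. Of the timer genes, 0 of 4 passed, against 0.927% of the genes tested (0.629% higher and 0.298% lower). Before adjustment 778 genes had a limma p under 0.05, and none of them was a timer gene. In JH3, Hr3 ran from 15.2 to 22.98 FPKM with a median of 22.1. Its log2 difference from DMSO was 0.19 ± 0.12 (SE, 95% interval -0.05 to 0.43, limma adjusted p = 0.663). Hr39 ran from 2.87 to 5.28 FPKM with a median of 4.17. The corresponding difference was 0.15 ± 0.13 (95% interval -0.11 to 0.42, limma adjusted p = 0.687).

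Blimp-1 in JH3 ran from 3.97 to 7.24 FPKM with a median of 6.38, and differed from DMSO by 0.14 ± 0.22 (SE, 95% interval -0.31 to 0.60, limma adjusted p = 0.801). For ftz-f1 the JH3 values ran from 7.84 to 15.6 FPKM with a median of 13.4, and the difference was 0.12 ± 0.16 (95% interval -0.22 to 0.46, limma adjusted p = 0.779). Without JH3 replicate 2 that of ftz-f1 turned to -0.013 and that of Blimp-1 went to 0.034. JH3 and DMSO libraries overlap for each of the 4 genes when pooled, where 0.576% of the genes tested were higher and 0.554% lower with no overlap. They also overlap within run 190514 (4.32% higher and 6.47% lower among the genes tested) and within run 200212 (11.5% and 12.6%). The 4 differences were above 0 in run 190514 (0.28 to 0.38) and below 0 in run 200212 (-0.11 to -0.03). A test of that change between the runs gave limma adjusted p-values of 0.984 to 0.999.

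The comparison of 20E with JH3 sets the hormones against each other and shares the 20E libraries with the first comparison and the JH3 libraries with the second. It is the test of whether the 2 hormones' differences from DMSO were unequal. Again 2 of the 4 genes passed, against 5.34% of the genes tested (3.90% higher in 20E and 1.44% lower). Hr3 was higher in 20E by 0.52 ± 0.10 on the log2 scale (SE, 95% interval 0.30 to 0.74, limma adjusted p = 0.00362), with no overlap between the 7 and 7 libraries, as in 1.75% of the genes tested. Hr39 was higher by 0.56 ± 0.11 (95% interval 0.31 to 0.80, limma adjusted p = 0.00455). Its groups overlap when pooled and separate in each run, as in 2.72% of the genes tested.

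The calls for Hr3 and Hr39 against JH3 were lost within each run. The within-run values were 0.54 (limma adjusted p = 0.183) and 0.51 (0.0662) for Hr3, and 0.41 (0.52) and 0.67 (0.0546) for Hr39. That of Hr39 was also lost without the run term (0.56, limma adjusted p = 0.185). Blimp-1 was 0.57 ± 0.20 higher in 20E (SE, 95% interval 0.16 to 0.98) and did not pass (limma adjusted p = 0.128). It lay above the pooled JH3 mean in 6 of 7 20E libraries, a count that mixes the runs and for which no share of all genes was computed. Within each run the lowest 20E value (5.35 FPKM in run 190514 and 7.16 in run 200212) lay above the JH3 mean of that run (4.88 and 6.74).

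For ftz-f1 the difference between the hormones was the larger of its differences and pointed the other way from those of the other timer genes. It was -0.41 ± 0.15 (SE, 95% interval -0.72 to -0.11), with a limma adjusted p of 0.145. Only 1 of 7 20E libraries, replicate 6, lay above the pooled JH3 mean of 12.4 ± 3.11 FPKM (SD, n = 7). That count also mixes the runs, and its share of all genes was not computed. In run 190514 the 20E libraries lay below the JH3 libraries with no overlap, as in 6.39% of the genes tested. Without 20E replicate 6 the difference was -0.53 and passed (limma adjusted p = 0.0101). It passed as well with library weights (-0.43, limma adjusted p = 0.00441) and with scaling to total reads (-0.47, limma adjusted p = 0.00863).

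**Figure D2:**
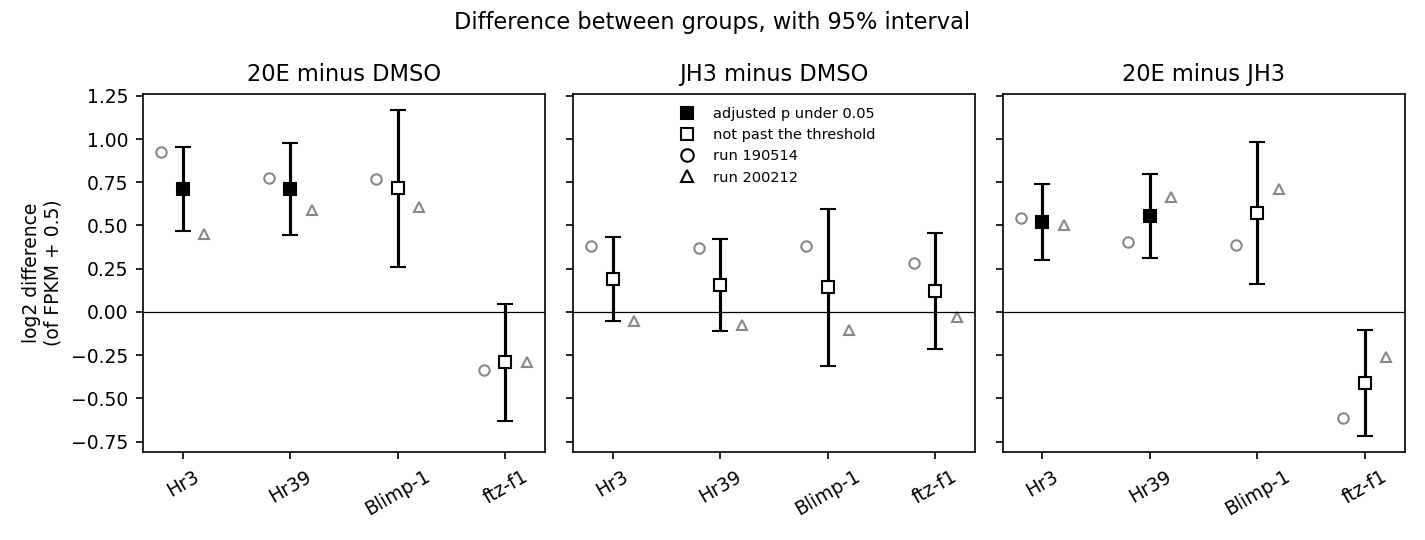
Log2 differences of log2(FPKM + 0.5) between groups for the 4 timer genes, with 95% intervals from limma over 19 libraries (squares, filled where the adjusted p is under 0.05) and the differences within each run (grey circles and triangles). Hr3, Hr39 and Blimp-1 lie between 0.71 and 0.72 for 20E minus DMSO, and ftz-f1 lies at -0.29.

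Ratios within a library compare the timer genes free of that library's scaling, and are given as a description with no test. The log2 ratio of Blimp-1 to ftz-f1 was -1.28 to -0.90 in DMSO (median -1.06, n = 5) and -1.16 to -0.87 in JH3 (median -1.08, n = 7). In 20E it was -0.37 to 0.38 (median 0.03, n = 7). The 20E libraries, replicate 6 included, lay apart from both other groups, with Blimp-1 at 0.776 to 1.31 times the level of ftz-f1 per length, against 0.412 to 0.547 times in the other libraries.

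Hr39 showed the same separation. Its log2 ratio to ftz-f1 was -1.81 to -1.52 in DMSO (median -1.56), -1.78 to -1.27 in JH3 (median -1.53) and -0.87 to -0.26 in 20E (median -0.51). Hr3 stood 0.64 to 0.95 above ftz-f1 on the log2 scale in DMSO (median 0.75) and 1.03 to 2.30 in 20E (median 1.56), with no overlap. In JH3 it stood 0.39 to 1.53 above (median 0.66), which overlaps 20E through JH3 replicate 1. Of 9380 tested genes other than ftz-f1, 1.39% had a ratio to ftz-f1 that was higher in 20E than in both other groups with no overlap. The shares were 2.11% for 20E above DMSO and 2.75% for 20E above JH3.

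**Figure D3:**
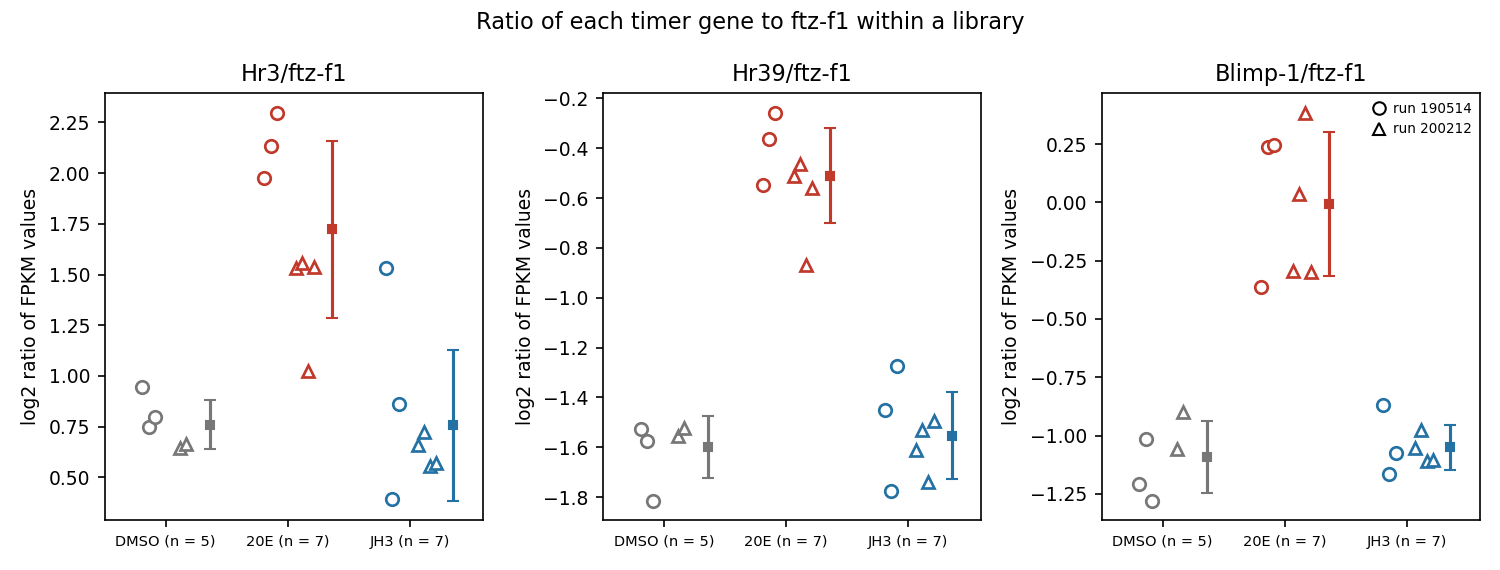
Log2 ratio of the FPKM of Hr3, Hr39 and Blimp-1 to that of ftz-f1 in each library, by group, with circles for run 190514, triangles for run 200212 and squares with bars for mean and SD. The 20E libraries lie above all other libraries for Hr39 (-0.87 to -0.26) and Blimp-1 (-0.37 to 0.38), and overlap JH3 for Hr3.

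Among themselves, Hr3, Hr39 and Blimp-1 kept ratios that overlapped between the groups. The log2 ratio of Hr3 to Hr39 had medians of 2.32 in DMSO, 2.10 in 20E and 2.25 in JH3. That of Blimp-1 to Hr39 had medians of 0.53, 0.50 and 0.56. E75, whose product can block Hr3 in the fly, differed from Hr3 by more in the hormone groups. The log2 ratio of E75 to Hr3 was 1.85 to 2.35 in DMSO, 2.62 to 3.43 in JH3 and 4.12 to 4.60 in 20E, without overlap among the 3 groups. E75 alone was also separate, with 64.0 to 92.4 FPKM in DMSO, 110 to 237 in JH3 and 472 to 882 in 20E. The separation of the ratio is therefore no result about Hr3. The share of all genes with such a ratio to Hr3 was not computed.

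Among the early regulators, E75 and Hr4 had larger estimates than any timer gene. E75 was higher by 2.96 on the log2 scale in 20E than in DMSO (limma adjusted p = 5.55e-11) and by 1.08 in JH3. Hr4, which in the fly also acts on ftz-f1, had 0.760 to 1.58 FPKM in DMSO and 25.1 to 48.0 in 20E. Its difference was 4.28 in 20E (limma adjusted p = 4.39e-13) and 0.63 in JH3, both past the threshold. The receptor genes themselves did not pass in 20E, with log2 differences of 0.05 for Ecr (limma adjusted p = 0.999) and 0.46 for usp (0.261).

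Beside the timer genes, 21 of 25 other genes of the ecdysone cascade were tested. In 20E against DMSO, 8 were higher, 1 was lower and 12 did not pass, against 2.59% higher and 0.746% lower among all genes tested. The median log2 difference was 0.25 against -0.01 over all genes tested. The higher genes were E75, Hr4, E23 (1.80), Eip74EF (1.47), Cyp18a1 (1.42), chinmo (0.997), Oatp74D (0.87) and Eip63E (0.39). In the fly, Oatp74D imports ecdysone into cells, Cyp18a1 inactivates it and E23 encodes an ABC transporter that damps the response. The estimates for Hr3 and Hr39 were smaller than those of all these genes but Eip63E. The gene that fell, ken (-0.76), encodes a zinc finger repressor.

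In JH3 against DMSO, 5 of the 21 were higher and 0 lower (E75, Hr4, Kr-h1, chinmo and Oatp74D), against 0.629% and 0.298% of all genes tested. The median was 0.28 against 0.00. These 2 comparisons share the DMSO libraries. In 20E against JH3, 6 were higher (E75, Hr4, Eip74EF, Eip63E, E23 and Cyp18a1) and 4 lower (Hr38, Kr-h1, ken and Oatp74D), against 3.90% and 1.44% of all genes tested. Of the 8 tested nuclear receptor genes outside the timer set, 2 (E75 and Hr4) were higher in 20E than in DMSO, where 2.59% of all genes tested were. Among 13 coregulators of nuclear receptors, Utx, a histone demethylase gene, was higher in 20E (0.65 against DMSO, limma adjusted p = 0.00692, and 0.59 against JH3, 0.00399), where 2.59% and 3.90% of all genes tested were higher. The other 12 did not pass in either comparison.

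**Figure D4:**
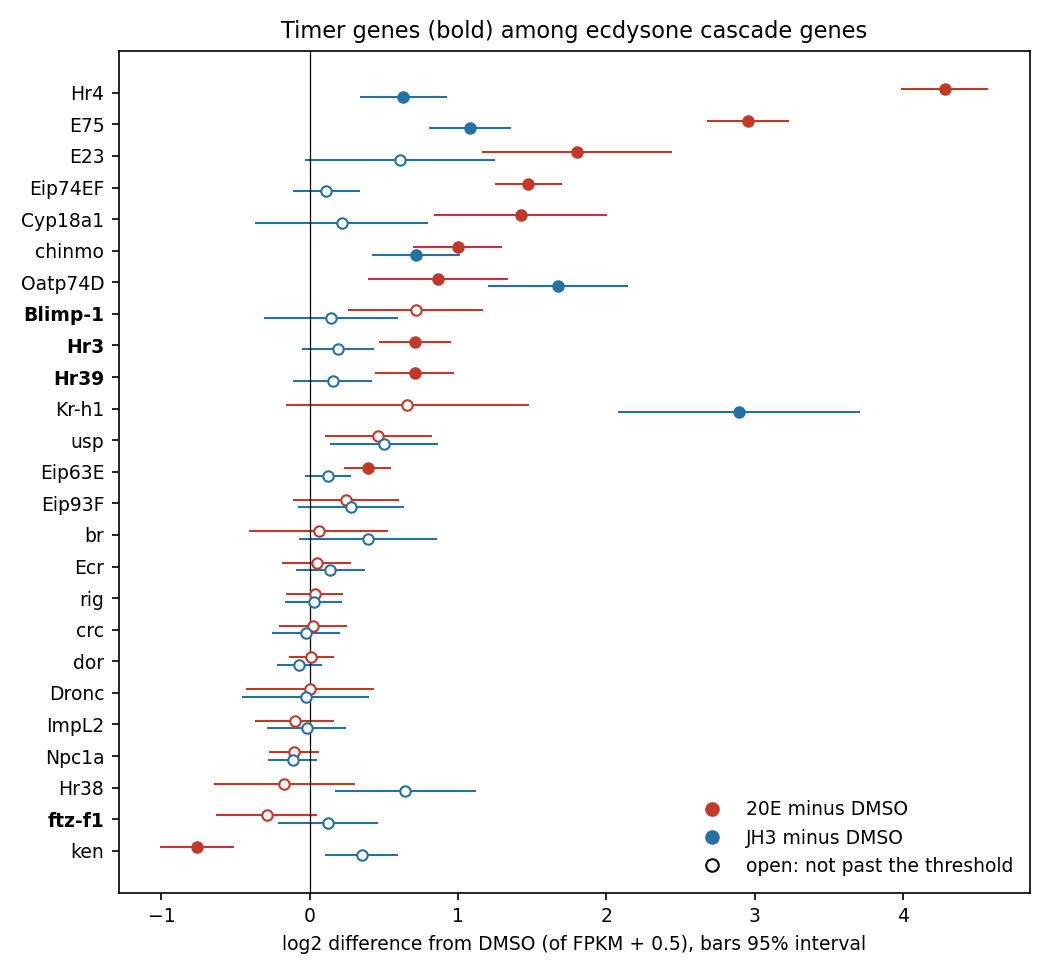
Log2 differences from DMSO of the 4 timer genes (bold) and 21 other ecdysone cascade genes, in 20E (red) and JH3 (blue), with 95% intervals. Filled points passed the threshold. In 20E, Hr3 and Hr39 (0.71 each) lie below Hr4 (4.28), E75 (2.96) and 5 other genes that rose, and ftz-f1 (-0.29) lies near the bottom.

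The timer genes differed between the runs, as 50.9% of the tested genes did. Run 200212 was higher by 0.71 ± 0.13 on the log2 scale for ftz-f1 (SE, limma adjusted p = 0.000173) and by 0.70 ± 0.17 for Blimp-1 (0.00232). The values were 0.59 ± 0.10 for Hr39 (0.000111) and 0.31 ± 0.09 for Hr3 (0.00813). For ftz-f1 the run difference was larger than any of its differences between groups, and for Blimp-1 it was close to that between 20E and DMSO (0.72). No gene had a hormone difference that changed between the runs after adjustment by limma (0 in each comparison, with 207, 450 and 248 at an unadjusted p under 0.05). For Hr3 in 20E against DMSO the change was -0.47 ± 0.21 (limma adjusted p = 0.998).

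With the group and run means removed, the timer genes varied together between libraries. Differences between ants and between library preparations cannot be told apart here. No r was computed for other long genes, so this is not shown to be particular to the timer genes. Pearson's r over 19 libraries was 0.86 for ftz-f1 with Blimp-1, 0.86 for ftz-f1 with Hr39 and 0.83 for Blimp-1 with Hr39. It was 0.49 to 0.64 for Hr3 with the others. Without 20E replicate 6 the first 3 values were 0.78, 0.81 and 0.80. The genes share their libraries, so depth and RNA quality are common to both axes. Within a group and run, libraries with more ftz-f1 tended to have more Blimp-1 and Hr39. Between DMSO and 20E the estimate of ftz-f1 was opposite in sign to those of Blimp-1 and Hr39.

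The residual spread of Hr3 (SD 0.18 on the log2 scale) stood at the 35.3rd percentile of the genes tested, that of Hr39 (0.21) at the 46.6th, that of ftz-f1 (0.29) at the 71.7th and that of Blimp-1 (0.41) at the 86.3rd. Long genes as a class varied between libraries too. The 1125 tested genes at least as long as Hr39 had a median log2 deviation from their mean over libraries of -0.46 to -0.12 in DMSO of run 190514 and 0.13 to 0.36 in DMSO of run 200212. In 20E it ran from -0.17 to 0.51, with the highest value in replicate 6, and in JH3 from -0.22 to 0.18. Between groups their median log2 difference was 0.07 for 20E against DMSO, where it was -0.01 over all genes tested, and 7.64% of them passed against 3.34% of all. For 20E against JH3 the median was 0.07 against -0.02, and 9.33% passed against 5.34%. For JH3 against DMSO the median was -0.01 against 0.00, and 2.31% passed against 0.927%. All 4 timer genes belong to this class.

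With a trend on gene length removed from each library, an alternative chosen after the data were seen, Hr3 and Hr39 kept their calls in 20E against DMSO (0.58 with a limma adjusted p of 8.65e-05, and 0.66 with 3.33e-05). Blimp-1 then passed against DMSO (0.61, limma adjusted p = 0.0167) and against JH3 (0.49, 0.0258). By the same alternative ftz-f1 did not pass against DMSO (-0.35, limma adjusted p = 0.126) and was lower in 20E than in JH3 (-0.50, 0.00395). With 20E replicate 6 also left out, ftz-f1 was lower in 20E than in DMSO (-0.42, limma adjusted p = 0.0113). The part of the length trend in the results without it was not tested in any other way.

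**Figure D5:**
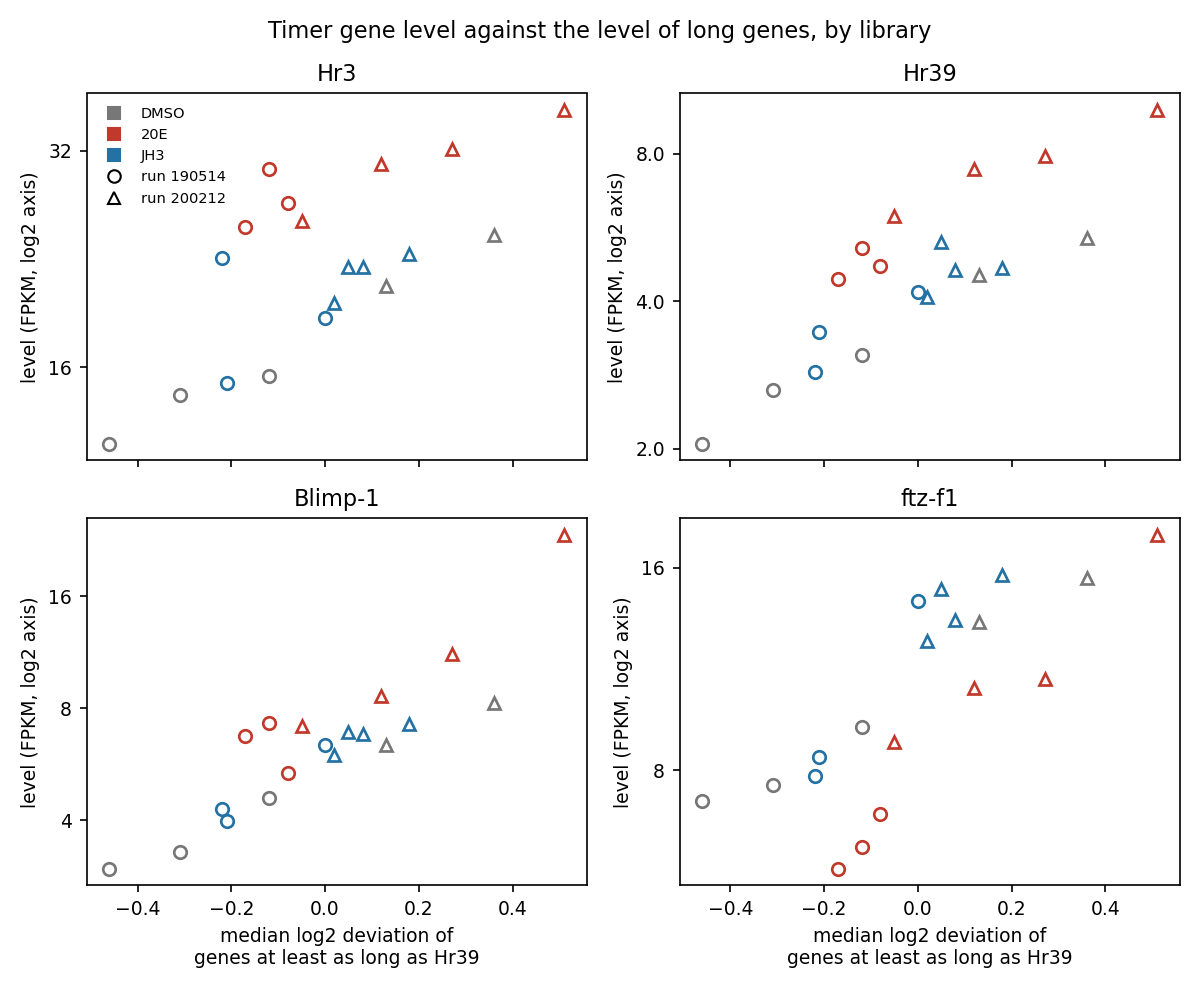
Level of each timer gene (FPKM on a log2 axis) against the median log2 deviation of the 1125 tested genes at least as long as Hr39, for each library, coloured by group, with circles for run 190514 and triangles for run 200212. Levels of all 4 genes are higher in libraries with higher long genes, up to 0.51 in 20E replicate 6, and at a like deviation most 20E points lie above the others for Hr3, Hr39 and Blimp-1 and below them for ftz-f1.

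The genes with the most similar pattern were found among 3862 tested genes with a symbol, by Pearson's r over the 19 libraries with the run means removed and no test. Nearest to Hr3 were kuz (r = 0.93), which encodes a metalloprotease, SCAR (0.92), an actin regulator gene, and E23 (0.92). For Hr39 they were stan, a cadherin gene, pnut, a septin gene, and Trim9, each at 0.94. The search used the group differences, so those of the 6 genes are a description. Their log2 differences between 20E and DMSO ran from 0.72 for pnut to 2.42 for stan, and those between JH3 and DMSO from -0.06 for Trim9 to 0.61 for E23.

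Blimp-1 was nearest to Cdk5alpha, an activator of a neuronal kinase in the fly (r = 0.97), Con (0.95) and InR-2, an insulin receptor gene (0.95). Their log2 differences between 20E and DMSO were 0.40, 0.50 and 0.51, and none passed (limma adjusted p = 0.329, 0.192 and 0.234). For ftz-f1 the nearest were atos (0.92), Teh3 (0.91) and Teh2 (0.88), the last a pair of sodium channel subunit genes in the fly. Their differences were -0.23, -0.17 and -0.20, and none passed (limma adjusted p = 0.885, 0.999 and 0.945). Of the 12 genes, all but E23 (3441 bases) have exon models of 7306 bases or more. Within the timer set r was 0.88 for Hr3 with Hr39, 0.89 for Blimp-1 with Hr39 and 0.80 for Hr3 with Blimp-1. With ftz-f1 it was -0.25 for Hr3, -0.06 for Hr39 and 0.18 for Blimp-1.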

How the data were processed

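Strand-specific poly(A) RNA-seq of 19 single-ant central brains was analysed from a single table of FPKM values that the authors deposited. Per the submitters' processing notes, bcl2fastq, STAR, featureCounts and DESeq2 were used. The sources used here give no versions, genome build or annotation. Read numbers were read back from the regular steps of the FPKM values for 14001 genes (100%, within 0.02 of a whole number), and exon model lengths from the same steps.

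Of the 14001 identifiers, 13989 were matched to symbols through RefSeq (assembly Hsal_v8.6). Genes with at least 1 FPKM in at least 5 libraries (9381, among them all 4 timer genes) were fitted as log2(FPKM + 0.5) with limma 3.58.1 in R 4.3.3, with terms for group and run label and an empirical Bayes prior variance that followed mean level. Two-sided p-values were adjusted by Benjamini-Hochberg over all tested genes of a comparison. Because 0.5 is added, differences of low genes are understated. On simulated data, 98 of 99 genes changed by 0.7 on the log2 scale and 16 of 9130 unchanged genes were called for 20E with DMSO (9329 genes). The simulation gave every gene the same spread beyond counting error, with no length trend and no outlying library. These shares therefore do not give the power for genes of larger spread, such as Blimp-1 (residual SD 0.41) and ftz-f1 (0.29).

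The members, the lists and the tests were chosen with earlier results of these data known. Named genes were the 4 timer genes, E75, Hr4, Ecr, usp, list genes past the threshold, and the 3 genes nearest to each timer gene. Hr96 and ERR were named for their rank, and marker genes for their values, after these were seen. List genes were matched by symbol, and names without a matching symbol are not analysed here. Alternatives changed the scaling, pseudocount, filter, run term, weights, tool (voom on the read numbers), pairing and libraries, and their effect is given at the end.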

Additional observations from a re-analysis of the deposited data

Results flagged for a closer look

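In 20E replicate 6, 2 of 12 sets of values (4 genes in 3 groups) held a value farther from its nearest neighbour than Dixon's 95% limit allows. Chance flags about 1 in 20 such sets where they are separate. The 2 flags are of 1 library and of genes that varied together (r = 0.86), so they are not separate. The gaps were taken on FPKM with the runs pooled, and not on the log2 scale used in the tests. In 20E replicate 6 Blimp-1 had 23.4 FPKM and in the next 20E library 11.2. That is a gap of 0.676 of the range against a limit of 0.568 for 7 libraries. For ftz-f1 the values were 17.9 and 10.9 FPKM, with a gap of 0.572. This library also had the highest deviation of long genes (0.51 on the log2 scale) and the highest summed neuronal markers (650 FPKM, against at most 523 in the other 20E libraries). It was also the highest 20E library for the summed markers of glia (881 against at most 785 FPKM), fat body (509 against 458) and corpora allata (5.58 against 3.40). The same held for haemocyte markers (42.6 against 35.3, a sum made up mostly of drpr), but not for those of eye, muscle or trachea. The part of these in the values of Blimp-1 and ftz-f1 was not tested.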

How the results depend on the processing

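Over 35 alternatives and 3 comparisons, 390 of 420 values of the timer genes kept their direction and their side of the threshold. The exceptions follow, as log2 differences, and the cause was not tested. Hr3 fell short within run 200212 for 20E with DMSO (0.45) and within the runs for 20E with JH3 (0.54 and 0.51). Hr39 fell short without the run term (0.81 with DMSO, 0.56 with JH3) and within the runs (0.78 and 0.59, 0.41 and 0.67), where fewer libraries were compared. Blimp-1 passed for 20E with DMSO with total-read scaling (0.65), library weights (0.70), the length trend removed (0.61) and that without 20E replicate 6 (0.49). With JH3 it passed with weights (0.52) and both length settings (0.49 and 0.36). For 20E with JH3, ftz-f1 passed with total-read scaling (-0.47), weights (-0.43) and both length settings (-0.50 and -0.58). With DMSO it passed only under the second (-0.42). JH3 with DMSO changed sign within run 200212 for Hr3 (-0.055), ftz-f1 (-0.029), Blimp-1 (-0.11) and Hr39 (-0.078), and for ftz-f1 without JH3 replicate 2 (-0.013).

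Leaving out each library, or 20E replicate 6 and JH3 replicate 1 together, gave, for 20E with DMSO, 0.64 to 0.81 for Hr3, 0.62 to 0.79 for Hr39, 0.55 to 0.81 for Blimp-1 and -0.39 to -0.24 for ftz-f1. For 20E with JH3 it gave 0.48 to 0.58, 0.47 to 0.62, 0.38 to 0.68 and -0.57 to -0.30. For JH3 with DMSO it gave 0.12 to 0.29, 0.067 to 0.23, 0.034 to 0.24 and -0.013 to 0.18. Blimp-1 passed without 20E replicate 7 and ftz-f1 (with JH3) without 20E replicate 6, alone or with JH3 replicate 1.

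Genes past the threshold numbered 313 for 20E with DMSO, 87 for JH3 with DMSO and 501 for 20E with JH3. With weights they were 551, 180 and 788, without the run term 193, 49 and 313, within run 190514 120, 14 and 169, and within run 200212 50, 8 and 160. For JH3 with DMSO they were 151 with total-read scaling, 161 and 223 with the length settings, and 60 to 137 leaving out a library (137 without 20E replicate 6). Leaving out a library gave 219 to 354 and 414 to 569 in the others. With total-read scaling 229 were higher and 112 lower for 20E with DMSO, against 243 and 70. Cascade genes higher in 20E than in DMSO numbered 5 and 3 within the runs (0 lower in run 190514, 7 to 8 higher leaving out a library). For JH3 with DMSO they were 3 with the stricter filter or no run term, 2 and 0 within the runs, and 3 to 5 leaving out a library. For 20E with JH3, 3 were higher in run 200212 and 2, 1 and 2 lower without the run term and within the runs (5 to 6 and 3 to 4 leaving out a library).

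Replicate numbers are shared by the groups. Same-numbered libraries correlated at 0.16 to 0.55 (20E and DMSO), 0.09 to 0.36 (JH3 and DMSO) and 0.05 to 0.49 (20E and JH3) with the group means removed, and 2 of 5, 1 of 5 and 1 of 7 pairs correlated best with their own number. Same-numbered libraries share the run, which was already a term of the fit. With the run means also removed, these ranges were -0.22 to 0.41, -0.38 to 0.32 and -0.23 to 0.50, with 2 of 5, 1 of 5 and 3 of 7 pairs over 0.1, so beyond the run the number is not shown to pair the libraries. With the replicate number as a block, 20E with DMSO gave 0.72 for Hr3, 0.71 for Hr39, 0.68 for Blimp-1 and -0.33 for ftz-f1, with no call of a timer gene changed, and 274, 96 and 531 genes passed.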
